A study of Rattus norvegicus with 12 samples.

Results

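Kidney circular RNAs (circRNAs) of the Dahl salt-resistant rat (R) were compared with those of the Wistar Kyoto rat (WKY), which are the normotensive partners of the Dahl salt-sensitive rat (S) and the spontaneously hypertensive rat (SHR). All 3 R and all 3 WKY arrays of the series were used, 6 of 12, with 1 array per rat and each rat labelled as a separate animal. The rats of both strains were male, ate the same 0.3% NaCl diet from weaning and were 57 days old when the kidneys were taken. The strain of the rat is the only labelled difference, blood pressure was not analysed here, and the tissue was the kidney with its many cell types together. In such samples a lower signal from fewer cells of a type and one from less RNA per cell cannot be told apart.

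A circRNA forms when the splicing machinery joins the end of an exon back to the start of the same or an earlier exon of the transcript, which leaves a closed ring without a cap or a poly(A) tail. Having no free end, a ring resists exonucleases and can outlast the linear mRNA of its host gene. Some rings bind miRNAs or RNA-binding proteins, and most have no described function. The arrays used here detect each ring with a probe to its back-splice junction after total RNA has been treated with RNase R, which degrades linear RNA from its ends.

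The array held 14145 circRNA probes of 1 spot each. A probe was kept when the scanner software marked it as well above background on every array of R or every array of WKY, which left 12341. Of the 12341, 11523 were above background on all 6 arrays, 598 were kept through R alone and 220 through WKY alone. A probe kept through 1 strain alone had to be bright there, so a p-value given for it below describes the probe and supports nothing. A further 1803 were too dim and 1 was left out for spots marked as outliers. Just outside the limit lay 99 probes with 2 of 3 arrays above background in both strains, and 1059 probes were above background on no array of either strain. The files used here do not pair the probes with host genes or positions, so circRNAs are called by their probe names. A level is the log2 signal minus the 75th percentile of circRNA signals on the same array, and 1 unit is a doubling. A difference is R minus WKY.

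The share of circRNA probes with signal was compared first. R arrays had 91.1%, 87.7% and 87.5% of circRNA probes well above background, and WKY arrays had 87.5%, 84.6% and 87.6%. The means of 88.7% ± 2.03 (SD, n = 3) and 86.6% ± 1.70 differed by 2.15 percentage points (exact two-sided permutation test, p = 0.3, where 3 rats against 3 cannot give less than 0.1). The 75th percentile itself, before scaling, was 7.95 ± 0.047 log2 units in R and 7.55 ± 0.361 in WKY, with WKY rats 1 to 3 at 7.67, 7.15 and 7.84. It was higher on every R array than on every WKY array (exact two-sided permutation p = 0.1). Arrays with the same scan date in their headers were taken to share a slide, which the labels do not state. By this rule all R arrays and WKY rats 1 and 2 shared a slide, and WKY rat 3 lay on another slide with the SHR arrays.

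Many kidney circRNAs differed between the normotensive strains. Of the 12341 tested, 2821 (22.9%) had an adjusted p under 0.05 in the fit of the 6 arrays (limma, Benjamini-Hochberg), and these are named called below. Of the called circRNAs 1459 (11.8% of those tested) were higher in R and 1362 (11.0%) were lower. An unadjusted p under 0.05 was reached by 4938. Over the 11523 probes above background on all 6 arrays the count was 2777. The difference over all tested circRNAs was centred near 0, with a median of 0.02 and quartiles of -0.44 and 0.48. Among the called circRNAs the median size was 1.13 log2 units, or 2.20-fold, and the smallest was 0.59. A difference of at least 1 log2 unit was measured for 1116 circRNAs higher in R and 1023 lower.

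A called circRNA nearly always separated the rats completely. For 2818 of the 2821 all R values lay on one side of all WKY values, which follows largely from calling on the same 6 arrays. Over all tested circRNAs 5932 (48.1%) separated the strains in this way, so a lack of overlap alone is common in these 6 arrays. The first principal component of the 6 arrays, over 12316 circRNAs without missing values, held 69.1% of the variance and ran along the strains. R rats 1 to 3 lay at 28.0, 38.0 and 70.0 on it, and WKY rats 1 to 3 at -26.5, -64.0 and -45.6. R rat 1 and WKY rat 1 were the closest rats across the strains, with a median absolute difference of 0.331 log2 units and Pearson's r = 0.961 over circRNAs. The same difference was 0.389 between R rats 1 and 3 (r = 0.956). Pairs within R ran from 0.195 to 0.389, pairs within WKY from 0.241 to 0.393, and the 9 pairs across from 0.331 to 0.718 with a median of 0.557. Circular RNAs on an array are not independent, so these correlations describe the arrays and carry no test.

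How many circRNAs passed depended on which arrays set the error. The limma fit of all 12 arrays, with a mean for each of the 4 strains, has the same differences and a spread taken from S and SHR as well, and it called 105 circRNAs (0.851%), 74 higher in R (0.6%) and 31 lower (0.251%). All 105 were among the 2821. Rats of R and of WKY varied less (median SD of 0.256 and 0.265) than rats of S and of SHR (0.517 and 0.349). The median standard error of the 105 was 0.32 in the fit of 6 arrays and 0.44 in the fit of 12. The 105 were also the larger differences, with a median of 2.44 log2 units (5.42-fold) and a smallest of 1.11. All 105 separated R from WKY without overlap, which again follows largely from the calling. Leaving out WKY rat 3, which is the same as using slide 1 alone or taking slide as a block, gave 737 calls, of which 735 were among the 2821. Leaving out R rat 2 gave 1151, R rat 3 gave 1418 and WKY rat 2 gave 1424.

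Brighter probes carried more of the calls and more of those higher in R. When the tested circRNAs were divided into 5 groups of about 2468 by their mean level over the 6 arrays, the called share was 17.5%, 17.8%, 19.7%, 22.0% and 37.2% from the dimmest to the brightest group. The share of the called circRNAs that were higher in R was 40.9%, 39.8% and 39.1% in the 3 dimmer groups, 46.4% in the next and 72.4% in the brightest. With this scaling the brightest group thus leaned to R, with 665 called circRNAs higher and 254 lower. Its median difference was 0.35 against values from -0.06 to 0.02 in the other 4. The lean was not computed with other scalings. Over all called circRNAs the share higher in R was 51.7% here and 59.2% with median scaling. It was 48.7% with quantile normalization and 47.4% with normexp background correction. A probe's brightness depends on the probe as well as on the RNA, so these groups order probes, not the abundance of rings. The same lean is seen in the median levels. The called circRNAs higher in R had a median level of 0.95 in R and -0.37 in WKY, and those lower in R had -1.70 in R and -0.48 in WKY.

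**Figure D1:**
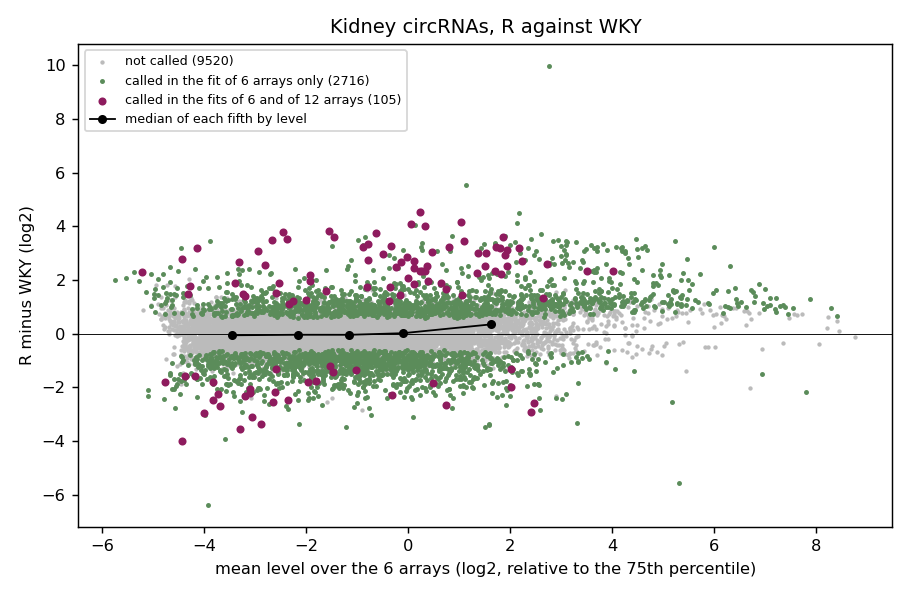
Each point is 1 of the 12341 tested circRNAs, with its mean level over the 6 arrays (log2, relative to the 75th percentile) on the x axis and the R minus WKY difference (log2) on the y axis. Green points are called in the fit of 6 arrays, purple points in the fits of 6 and of 12 arrays, and the black line joins the medians of the 5 brightness groups, which stay between -0.06 and 0.02 in the 4 dimmer groups and reach 0.35 in the brightest.

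The 8 circRNAs with the largest differences higher in R, among those called in both fits, were 12.1-fold to 23.1-fold higher. ASCRPR006961 had levels of 1.83, 1.94 and 3.74 in R rats 1 to 3 and of -1.37, -2.28 and -2.42 in WKY rats 1 to 3. R rat 3 stood above the other R rats, and every R rat was above every WKY rat. The difference was 4.53 log2 units (SE 0.52, limma adjusted p = 0.00476), or 23.1-fold. ASCRPR006672 read 2.22, 2.86 and 4.31 in R and -0.49, -1.37 and -1.24 in WKY. Its difference was 4.16 (SE 0.50, adjusted p = 0.00476), again with the highest R value in rat 3 and the highest WKY value in rat 1. ASCRPR005701 had values of 1.28, 1.66 and 3.39 against -1.43, -2.15 and -2.33, a difference of 4.08 (SE 0.52, adjusted p = 0.00485). ASCRPR009893 had 1.47, 1.81 and 3.72 against -1.30, -1.82 and -1.92, a difference of 4.02 (SE 0.53, adjusted p = 0.00501). These 4 circRNAs ordered the rats in nearly the same way.

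ASCRPR005925 differed by 3.81 (SE 0.53, adjusted p = 0.00517), with R at -0.33, -0.36 and 1.73 and WKY at -3.03, -3.70 and -3.66. ASCRPR011379 differed by 3.60 (SE 0.42, adjusted p = 0.00476), with R at 3.17, 3.28 and 4.54 and WKY at 0.68, -0.44 and -0.04. Over the 8, R rat 3 was the highest R rat for 7 and WKY rat 1 the highest WKY rat for 8. ASCRPR010162 was the exception for R rat 3 and was far tighter, at -0.40, -0.36 and -0.91 in R and -4.04, -4.82 and -4.16 in WKY, where 2 of 3 arrays had it above background. Its difference was 3.78 (SE 0.27, adjusted p = 0.00256). ASCRPR011781 completed the group with a difference of 3.76 (SE 0.48, adjusted p = 0.00485), at 0.52, 1.29 and 1.93 in R and -1.74, -3.44 and -2.36 in WKY.

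Of the 8 largest differences lower in R, 5 were of circRNAs that were not above background on every R array. ASCRPR003268 had levels of -4.72, -4.44 and -4.51 in R and -1.58, -0.86 and -1.18 in WKY. It was above background on all 6 arrays, and it was 10.2-fold lower in R (difference -3.35, SE 0.23, limma adjusted p = 0.00256). ASCRPR009360 was lower by 3.55 log2 units (difference -3.55, SE 0.54, adjusted p = 0.00628), with WKY tight at -1.42, -1.61 and -1.53 and R at -4.01, -4.70 and -6.49, where 1 of 3 arrays was above background. ASCRPR005133 (difference -3.10, SE 0.32), ASCRPR000752 (-2.94, SE 0.51) and ASCRPR005023 (-2.70, SE 0.30) were above background on all WKY arrays and on 2, 1 and 1 of 3 R arrays. With R arrays held at the lowest signal that was well above background, they were at least 7.93-fold, 4.54-fold and 5.31-fold lower in R, and ASCRPR009360 at least 7.59-fold lower. ASCRPR001904 was above background on no R array and is given below with a bound. The size of differences this near to background depended on how background was subtracted. With normexp correction ASCRPR003268 differed by -1.29, ASCRPR009360 by -1.12, ASCRPR005133 by -1.18, ASCRPR000752 by -0.88 and ASCRPR005023 by -0.88. Of the rings higher in R, ASCRPR010162 differed by 1.47, ASCRPR005925 by 2.04 and ASCRPR011781 by 2.49, all still called.

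Another pair of the 8 was bright in both strains. ASCRPR005274 had levels of 0.82, 0.85 and 1.21 in R and 2.82, 5.15 and 3.68 in WKY. The R rats agreed closely and the WKY rats spread over more than 2 log2 units, with rat 1 lowest and rat 2 highest, and the difference was -2.92 (SE 0.51, limma adjusted p = 0.00930). ASCRPR009486 had -0.76, -0.72 and -0.29 in R against 1.70, 1.82 and 2.66 in WKY, a difference of -2.65 (SE 0.29, adjusted p = 0.00476). WKY rat 1 was the lowest WKY rat, and so the nearest to R, for 6 of the 8.

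**Figure D2:**
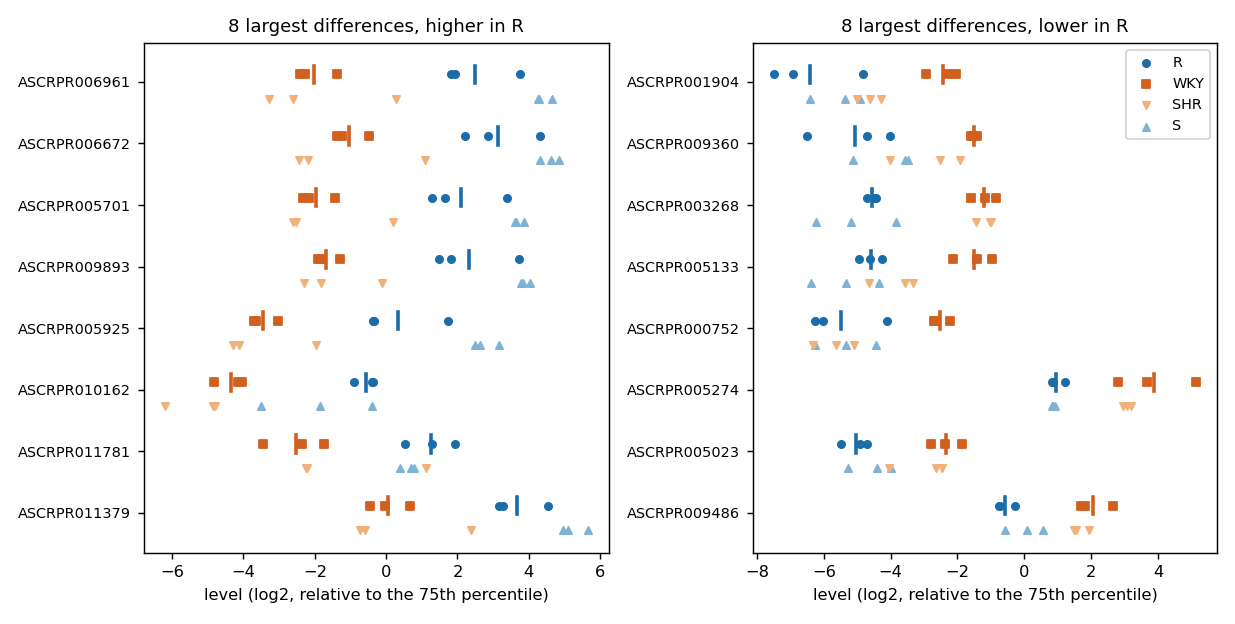
Levels (log2, relative to the 75th percentile) of the 8 circRNAs with the largest differences in each direction, 1 point per rat, with a bar at the mean of R (dark blue) and of WKY (dark orange). S (light blue) and SHR (light orange) rats are drawn below them. In both panels no R point overlaps a WKY point, as in ASCRPR003268 with R from -4.72 to -4.44 and WKY from -1.58 to -0.86. A lack of overlap was required of the circRNAs drawn.

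The brightest circRNAs called in both fits were ASCRPR009501, ASCRPR001811 and ASCRPR003257 among those higher in R. ASCRPR009501 read 4.85, 5.12 and 5.57 in R and 3.32, 2.34 and 2.88 in WKY, a 5.04-fold difference (2.33 log2 units, SE 0.30, limma adjusted p = 0.00485). ASCRPR001811 was higher by 2.35 (SE 0.32), at 4.69 ± 0.53 (SD, n = 3) in R and 2.34 ± 0.42 in WKY. ASCRPR003257 was higher by 2.61 (SE 0.31), at 4.03 ± 0.40 against 1.42 ± 0.50. For all 3, WKY rat 1 had the highest WKY value. Among those lower in R the brightest, besides ASCRPR005274, were ASCRPR011243 and ASCRPR000883. ASCRPR011243 read 1.37, 1.13 and 1.01 in R and 3.25, 4.26 and 3.80 in WKY, a difference of -2.60 (SE 0.28, adjusted p = 0.00476). ASCRPR000883 read 1.51, 1.42 and 1.17 against 2.41, 2.57 and 3.07, a difference of -1.32 (SE 0.23, adjusted p = 0.00978). The sizes depended on the scaling. With quantile normalization ASCRPR009501, ASCRPR001811 and ASCRPR003257 had smaller differences of 1.58, 1.70 and 2.18. ASCRPR005274, ASCRPR011243 and ASCRPR000883 had larger ones of -3.48, -3.19 and -1.73.

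Bright signal did not by itself mean a difference. ASCRPR009250 had the highest mean level over the 6 arrays and was chosen, like ASCRPR013357 and ASCRPR005079, after the values were seen. It read 8.58, 8.68 and 8.87 in R and 8.52, 8.99 and 8.99 in WKY, and the groups overlapped (difference -0.13, SE 0.21, limma adjusted p = 0.688). ASCRPR013357 differed by 0.09 (SE 0.21, adjusted p = 0.783). ASCRPR005079 was higher in R by 0.65 (SE 0.20, adjusted p = 0.0480), at 8.73, 8.71 and 8.77 against 8.29, 7.83 and 8.14, and the fit of 12 arrays did not call it.

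Some circRNAs called in both fits were set apart by how little the rats of a strain varied, more than by size. ASCRPR011241 had levels of 0.55, 0.37 and 0.64 in R and -1.21, -1.20 and -1.25 in WKY. The WKY rats lay within less than 0.1 log2 units, and the ring was 3.34-fold higher in R (1.74 log2 units, SE 0.18, limma adjusted p = 0.00476). ASCRPR011251 was higher by 1.31 (SE 0.19), at 3.30 ± 0.060 (SD, n = 3) in R and 1.99 ± 0.16 in WKY. In the other direction ASCRPR013584 read -3.27, -3.17 and -3.31 in R and -1.97, -1.83 and -2.03 in WKY (difference -1.30, SE 0.18). ASCRPR006027 was lower by 1.79 log2 units (difference -1.79, SE 0.18), at -4.71 in R, where 2 of 3 arrays had it above background, and -2.93 in WKY. With normexp these 2 differences were -0.65 and -0.70, both still called. The gap between the strains was several times the range within either in each of these, which were picked for a small spread, so this follows from the choice.

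CircRNAs with signal in a single strain were found in both directions. Of the probes kept, 94 were well above background on all 3 R arrays and no WKY array, and 48 of them were called. The reverse held for 15 probes, and all 15 were called. Over all tested circRNAs 22.9% were called. The R arrays were brighter before scaling, as given above, and the part of this in the count of 94 against 15 was not tested. Because the dim strain has only an upper limit, each fold here is a lower bound, taken from the mean of the bright strain and, per array of the dim strain, the higher of the probe's own signal and the lowest signal that was well above background. The bounds of the 48 ran from 0.793 to 4.81-fold with a median of 1.40-fold, where a bound under 1 gives no direction, and those of the 15 ran from 1.72 to 17.6-fold with a median of 2.44-fold. A probe had to be high in a strain to enter these counts. The calls, the bounds and the p-values given with them therefore describe these probes and support nothing. A bound also holds only for the scanner's own background subtraction.

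ASCRPR013885 was at least 17.6-fold lower in R, and at least 7.13-fold without WKY rat 2. It read -2.62, 1.86 and -1.47 in WKY (limma adjusted p = 0.00600). Its difference was -2.04 log2 units with normexp and -2.76 in the deposited value table. ASCRPR009161 was at least 9.52-fold lower in R, and at least 5.12-fold without WKY rat 2, with WKY at -3.47, 0.16 and -1.57 (adjusted p = 0.0132). Its difference was -1.36 with normexp and -1.78 in the deposited table. In both, WKY rat 2 was far above the other WKY rats and rat 1 was lowest, and neither was called in the fit of 12 arrays. For ASCRPR001904 the bound was 5.46-fold (lower in R), with WKY at -2.93, -2.05 and -2.30, and both fits called it (adjusted p = 0.00631 with 6 arrays). For ASCRPR012143 it was 5.31-fold (lower in R), with WKY at -3.29, -1.64 and -2.47 (adjusted p = 0.00480), and the fit of 12 arrays did not call it. With normexp these 2 differed by -0.91 and -0.87. ASCRPR009161 lost its call without R rat 3, without WKY rat 3 and in the deposited value table, and ASCRPR013885 with normexp and in that table.

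In R alone ASCRPR006598 was the largest, at least 4.81-fold higher, with R at -3.00, -1.83 and -1.60 (limma adjusted p = 0.00485). ASCRPR013001 was at least 3.70-fold higher with R at -2.81, -2.43 and -2.34 (adjusted p = 0.00442). ASCRPR009425 was at least 2.97-fold higher with R at -3.06, -2.99 and -2.47 (adjusted p = 0.00928). ASCRPR006412 was at least 2.93-fold higher with R at -4.70, -2.35 and -1.54, and its adjusted p of 0.0256 passed 0.05 without R rat 2, without R rat 3, without WKY rat 1 and without WKY rat 3. All 4 lost their call with normexp, where ASCRPR006598 differed by 0.61, ASCRPR013001 by 0.42, ASCRPR009425 by 0.21 and ASCRPR006412 by 0.41. In the deposited table the differences were 1.36, 1.20, 0.74 and 1.09, the last no longer called. Without R rat 3 the bound of ASCRPR006412 was 1.85-fold. S rats had ASCRPR006598, ASCRPR013001 and ASCRPR006412 above background on all 3 arrays.

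The differences larger than 4.53 log2 units were not called in the fit of 12 arrays, and they are given here after their values were seen. ASCRPR013743 had the largest of all. It read 4.37, 8.93 and 9.93 in R rats 1 to 3 and -1.40, -3.26 and -2.03 in WKY, a difference of 9.97 log2 units (SE 1.26, limma adjusted p = 0.00485). R rat 1 lay far below the other R rats and still far above every WKY rat. The same probe read 11.67, 7.04 and 10.97 in S and -2.80, 8.56 and -2.31 in SHR, so that SHR rat 2 lay with R and S. ASCRPR007387 was higher in R by 5.54 (SE 0.58, adjusted p = 0.00476), at 2.66, 3.83 and 5.24 against -1.17, -2.08 and -1.64, and SHR rat 2 read 4.01 where SHR rats 1 and 3 read -1.81 and -1.70. ASCRPR005854 ran the other way, at 4.61, 2.36 and 0.60 in R and 7.90, 8.18 and 8.19 in WKY (difference -5.56, SE 0.83, adjusted p = 0.00587), with SHR at 7.78, 1.75 and 7.75. On these 3 probes SHR rat 2 departed from its own strain.

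The hypertensive strains were then set against the called circRNAs to see which array lay nearer to which normotensive mean. Neither S nor SHR values entered the choice of the 2821. S rats 1 to 3 lay nearer the R mean than the WKY mean for 82.7%, 90.8% and 90.5% of them, and SHR rats 1 and 3 did so for 3.33% and 5.28%. SHR rat 2 did so for 86.9%, or 2452 circRNAs. Over all 12341 tested the shares were 66.8%, 71.7% and 70.3% for S, 20.0% and 23.2% for SHR rats 1 and 3, and 71.3% for SHR rat 2. R and S are related lines selected from the same stock, and SHR was derived from WKY. By signal, then, S rats and SHR rats 1 and 3 fell with their labelled counterpart strain, and the library labelled SHR rat 2 fell with R.

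Pairs of arrays gave the same picture for SHR rat 2 and only in part for S. The 9 pairs of R and S arrays had a median difference of 0.573 log2 units, against 0.823 for WKY and S. That was no smaller than the 0.557 for R and WKY, and the S rats were unlike each other. S rat 2 differed from R rats 1 to 3 by 0.184, 0.247 and 0.397, and from S rats 1 and 3 by 0.84 and 0.62. On this measure S rat 2 lay with R and not with its own strain, and S rats 1 and 3 lay further from R. S rat 1 was dim, with a 75th percentile of 6.22 before scaling and 70.3% of circRNA probes above background. SHR rat 2 differed from R rats 1 to 3 by a median of 0.254, 0.223 and 0.343 log2 units and from SHR rats 1 and 3 by 0.545 and 0.527. All S arrays lay on R's side and all SHR arrays on WKY's side for 746 of the 12341 circRNAs (6.04%) and for 198 of the 2821 called (7.02%). The same pattern with SHR rat 2 on R's side was found for 3350 (27.1%) and 1777 (63.0%). Among the 105 called in both fits the counts were 44 and 34, and these 105 were chosen with the spread of SHR in the fit. Without SHR rat 2 the fit of the other 11 arrays called 1549, and without S rat 2 it called 632.

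Of the 105, 9 (8.57%) had all SHR arrays nearer the R mean, near the share over all tested circRNAs (1046, or 8.48%) and above that over the called ones (54, or 1.91%). They are named after their values were seen. ASCRPR013242 read 0.32, 0.46 and 0.96 in R and -2.16 ± 0.17 (SD, n = 3) in WKY, a difference of 2.74 (SE 0.23, limma adjusted p = 0.00364). SHR rats read 1.49, 1.52 and 1.45, above every R rat, and SHR rat 2 here lay with the other SHR rats. ASCRPR001885 read -1.17, -1.40 and -1.99 in R, -5.10, -3.41 and -3.74 in WKY and -1.65, -1.53 and -1.42 in SHR (R minus WKY 2.56, SE 0.43, adjusted p = 0.00830). It was above background on 2 of 3 WKY arrays and so was kept through R alone. ASCRPR008893 was higher in R by 1.52 (SE 0.19), at -1.83 ± 0.14 (SD, n = 3) against -3.35 ± 0.10, with SHR at -2.01 ± 0.31. S rats read -2.19, -3.23 and -2.61 on it, so that S rat 2 lay at the level of WKY.

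ASCRPR005029 was lower in R by 2.54 log2 units (difference -2.54, SE 0.20, limma adjusted p = 0.00286), at -3.79, -3.80 and -4.19 in R against -1.43, -1.41 and -1.31 in WKY, and SHR lay at -3.04, -4.43 and -2.67. Among the 105, ASCRPR000194 was alone in having all S arrays with WKY and all SHR arrays with R, a pattern found for 3 of the 2821 called and 79 of all tested. It read -1.63, -1.19 and -1.35 in R, -4.98, -4.62 and -3.83 in WKY, -4.39, -4.27 and -4.86 in S and -1.29, -2.03 and -1.67 in SHR, with an R minus WKY difference of 3.08 (SE 0.31, adjusted p = 0.00470). It was above background on 1 of 3 WKY arrays and 1 of 3 S arrays. The others of the 9 were ASCRPR000752, ASCRPR000754, ASCRPR003497 and ASCRPR005133.

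The arrays also carry probes to linear mRNAs, whose signal RNase R should lower, and this signal separated R from WKY. Of 62 such probes with an accession, 10 spots each, 55 passed the brightness limit (over 50% of spots above background on every array of R or of WKY), and 35 of the 55 (63.6%) were called, 33 lower in R (60.0%) and 2 higher (3.64%). The median difference over the 55 was -1.75 log2 units, on the scale of the circRNA 75th percentile. Some of the 33, such as Pld1, Odf2l and Mex3c, passed the limit through WKY alone, where they had to be bright. The direction of such probes therefore supports nothing. Others passed in both strains, among them Rplp1, Pgk1 and B2m, which were lower in R, and Ptk2b and Hsp90ab1, the 2 higher in R. Probes that passed in both strains were not counted apart. The mean level over the 55 was -1.93, -2.03 and -1.97 in R rats 1 to 3 and -1.03, 0.00 and -0.33 in WKY rats 1 to 3. The strains did not overlap, the R rats agreed within about 0.1, and WKY rat 1 lay between R and the other WKY rats. S rats lay at -2.36, -2.05 and -2.27, SHR rats 1 and 3 at -0.25 and -0.56, and SHR rat 2 at -2.01, next to R. The order of the 12 arrays by linear signal thus resembled their sides at the called circRNAs, and the part of the remaining linear RNA in the circRNA differences was not tested. On these arrays it cannot be told apart from strain between R and WKY, since no R rat reached the level of a WKY rat.

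**Figure D3:**
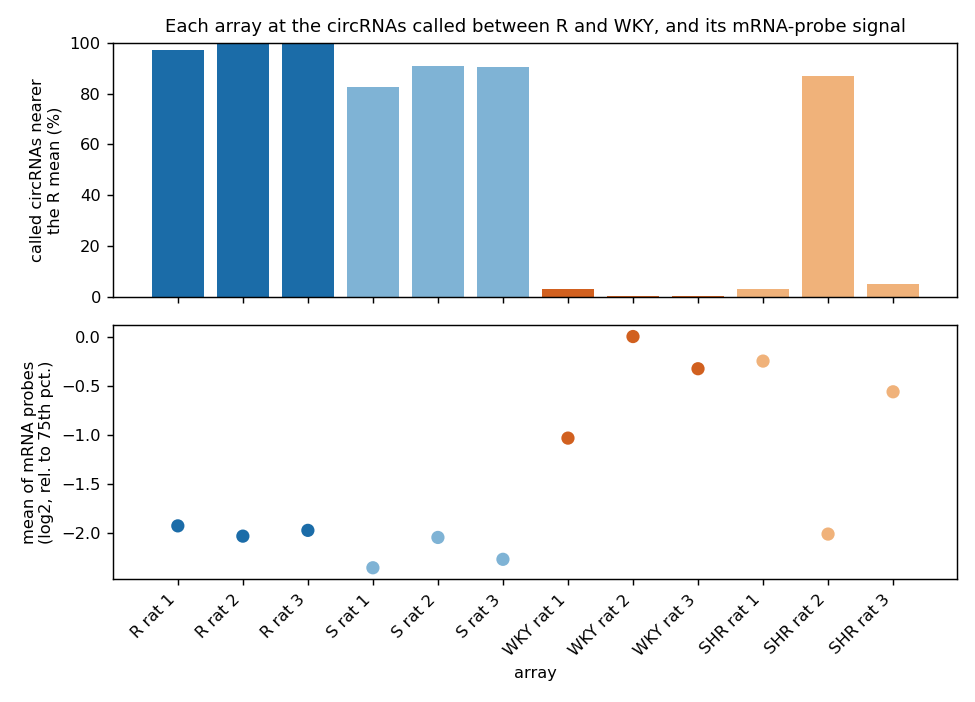
Upper panel, bars from 0: the share (%) of the 2821 called circRNAs at which each of the 12 arrays lay nearer the R mean than the WKY mean, where the R and WKY bars are set by the calls themselves. Lower panel: the mean level (log2, relative to the circRNA 75th percentile) of the 55 mRNA probes on the same arrays, where SHR rat 2, at 86.9% and -2.01, stands with R and S in both panels.

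By gene, 35 of the 55 probes matched 34 named genes, with 20 probes lower in R, 2 higher and 13 not called, and a median difference of -1.56. Of the 19 common reference genes listed, 10 had a tested probe, 11 probes in all. Of these probes 9 were lower in R, 1 was higher and 1 was not called (median -2.37). Over all 55 probes 60.0% were lower, with a median of -1.75. The 2 tested ribosomal protein mRNAs were both lower in R, which says little beside that share. Rplp1, an acidic stalk protein of the large ribosomal subunit, read 0.20, 0.31 and 0.70 in R and 2.52, 6.27 and 5.85 in WKY, a difference of -4.48 (SE 0.85). Rpl13a, another large-subunit protein, differed by -2.37 (SE 0.49). WKY rat 1 was the lowest WKY rat for each.

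Enzymes of glycolysis and of pyruvate and succinate metabolism had 4 tested probes of 3 of the 32 genes listed, all lower in R with a median of -2.42, beside 60.0% lower and a median of -1.75 over all 55 probes. Ldha, the A subunit of lactate dehydrogenase, had differences of -3.78 (SE 0.84) and -1.80 (SE 0.42) on its 2 probes. Pgk1, which makes ATP in glycolysis, read -1.06, -1.38 and -0.22 in R and 0.49, 3.04 and 2.72 in WKY (difference -2.97, SE 0.67). Sdha, the flavoprotein of succinate dehydrogenase, differed by -1.86 (SE 0.58), and it lost its call without R rat 1, without WKY rat 2 and without WKY rat 3. The probes of Ldha had the same direction and unequal sizes.

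Other reference genes spread widely. Hprt1, a purine salvage enzyme, differed by -2.69 (SE 0.53) and B2m, the beta-2-microglobulin chain of MHC class I, by -2.45 (SE 0.42), with B2m at 2.74, 2.60 and 2.46 in R and 4.37, 5.55 and 5.24 in WKY. Actb, cytoskeletal beta-actin, differed by -1.01 (SE 0.37, limma adjusted p = 0.036), at 2.20, 2.18 and 1.70 against 3.08, 3.03 and 2.99. Gusb, a lysosomal glucuronidase, differed by -0.80 and was not called (adjusted p = 0.243). Hsp90ab1, a cytosolic chaperone, was higher in R, at 4.29, 4.41 and 4.79 against 3.71, 3.41 and 3.53 (difference 0.95, SE 0.37, adjusted p = 0.047). Actb lost its call in 9 of 19 alternatives, among them each without 1 of the R rats and without WKY rat 3. Hsp90ab1 lost its call in 10 of 19, among them the same and without WKY rat 2, and quantile normalization brought its difference to 0.02.

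Further called mRNA probes lower in R were of several functions. Cse1l, which carries importin alpha out of the nucleus, differed by -3.60 (SE 0.57), and Magoh, a core protein of the exon junction complex, by -3.01 (SE 0.59). Trim2, a ubiquitin ligase, differed by -2.22 (SE 0.39), and the ubiquitin ligase adaptors Ndfip2 and Ndfip1 by -1.93 (SE 0.42) and -1.56 (SE 0.39). Pdcd10, a protein of the cerebral cavernous malformation complex, differed by -2.04 and Mex3c, an RNA-binding ubiquitin ligase, by -1.96. Pld1, a phospholipase D, was at least 5.17-fold lower in R and Odf2l at least 2.07-fold lower, each above background on no R array. Cyp2e1, a cytochrome P450 and the sole proximal tubule marker of 8 listed with a tested probe, read -0.72, -0.92 and -1.31 in R and 0.24, 1.46 and 1.20 in WKY (difference -1.95, SE 0.44). Nat1, an arylamine acetyltransferase, differed by -1.36. Mex3c read -3.71, -3.36 and -6.29 in R, and without R rat 3 its difference was -1.04, and with array weights it was -1.13 and not called. Mex3c and Nat1 lost their calls without WKY rat 2 or WKY rat 3, Nat1 also without R rat 3, and Odf2l without WKY rat 3 and with normexp. With normexp Pld1 differed by -0.86 and Odf2l by -0.47, and 16 of the 35 probes of named genes had a difference more than 1.5 times smaller. Of the 35 probes of named genes, 13 were not called and 2 were higher in R. The probes of this paragraph were chosen as called lower in R, so their shared direction is set by that choice.

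Ptk2b, a calcium-activated tyrosine kinase, was the clearest probe against this direction. It read -1.41, -0.81 and 0.16 in R and -1.93, -2.50 and -2.85 in WKY, a difference of 1.74 (SE 0.49, limma adjusted p = 0.012), and it lost its call without WKY rat 3. S rats read 1.80, 0.42 and 0.97 and SHR rats -3.47, -1.24 and -3.48. Dlg4, a synaptic scaffold protein, differed by 1.25 with overlap between the strains (adjusted p = 0.070). Nlrp3, an inflammasome sensor and the sole leukocyte marker of 4 listed with a tested probe, differed by 0.23 (adjusted p = 0.613), with R from -4.12 to -3.43 and WKY from -4.24 to -4.00, and its sign turned with normexp (-0.17). Markers of 8 other kidney, vascular, blood and injury lists had no tested probe. The probes of Cyp2e1 and Nlrp3 read linear RNA left after RNase R, so they do not measure cell makeup. The cell makeup of the kidneys was not tested.

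**Figure D4:**
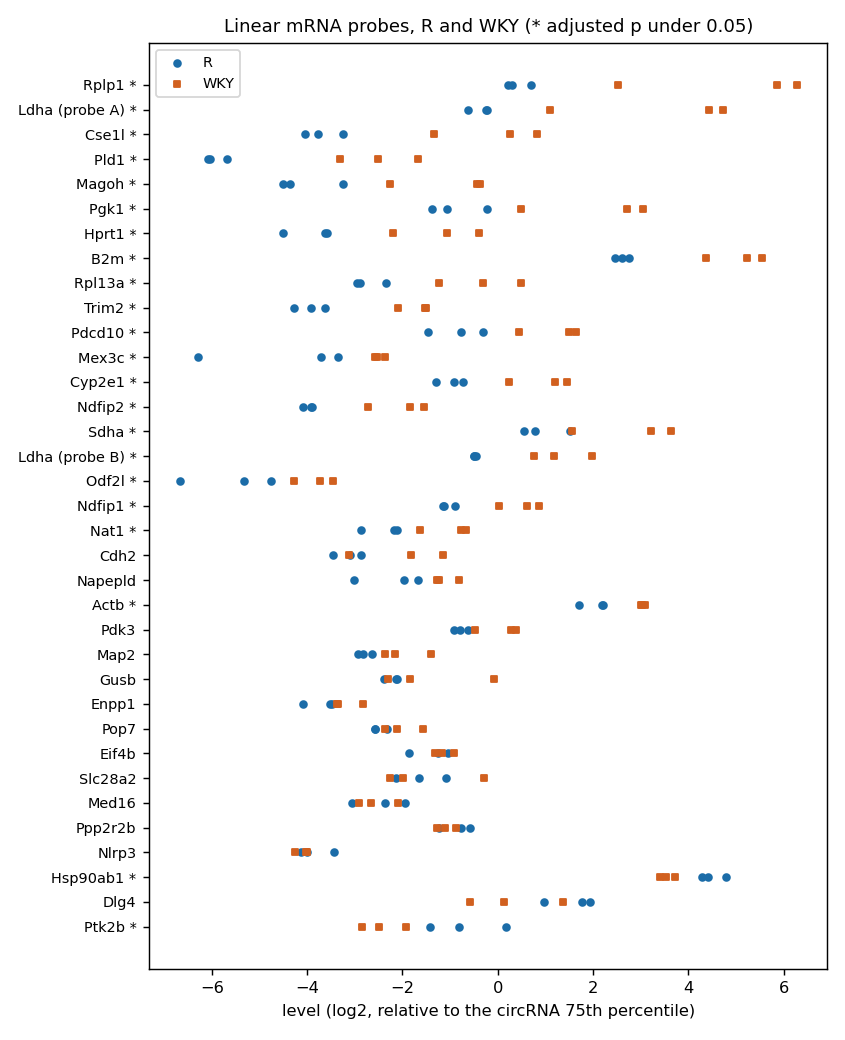
Levels (log2, relative to the circRNA 75th percentile) of the 35 mRNA probes of named genes, 1 blue circle per R rat and 1 orange square per WKY rat, ordered by the difference from lower in R (top) to higher in R (bottom), with a star for an adjusted p under 0.05. Rplp1 has the largest difference between strain means, at -4.48, with R from 0.20 to 0.70 and WKY from 2.52 to 6.27. Ptk2b and Hsp90ab1 are the 2 starred probes higher in R.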

How the data were processed

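Kidney RNA of 6 rats was read on 1-colour rat circRNA arrays. Per the labels' protocols, total RNA was treated with RNase R and labelled with Cy3 by random priming, and the strain labels gave the groups. Per the file headers, Feature Extraction 11.0.1.1 produced the deposited spot intensity, which is corrected for background but has no scaling between arrays. limma is also named, with no role, per the submitters' processing notes. The authors' deposited value table holds log2 values whose centring and filter are not given in the sources used here, and it served as an alternative.

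Intensities were taken to log2, minus each array's 75th percentile over circRNA probes, with 25 outlier-marked spots as missing. A strain mean was fitted with limma 3.58.1 (R 4.3.3; lmFit, eBayes), Benjamini-Hochberg adjusted over all probes kept. The members, lists and naming rule, and the use of 6 arrays as the main fit with 12 as the alternative, were chosen with earlier results of these data known. The rule named, among circRNAs called in both fits, the 8 largest per direction, the 3 brightest and the 2 with least spread, plus the 4 largest bounds per direction among those detected in 1 strain. Spots of an mRNA probe were averaged, and 39 of 62 accessions matched 1 gene each in RefSeq (GRCr8). The mRNA probes Fgf2, Gdnf, Lhcgr and P2rx2 were not above background. The fit was also run on simulated data with independent noise for each probe. Such data lack the patterns that probes of a real array share, so the run does not bear on the number of calls. Precision is limited by 3 arrays per strain. Alternatives are listed in the closing section.

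Replicate numbers were checked for pairing. Deviations from the strain mean correlated at 0.07, 0.23 and -0.19 between same-numbered rats, so the numbers were not treated as pairs.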

Additional observations from a re-analysis of the deposited data

Results flagged for a closer look

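Outside the compared probes, the arrays carry 20 probes with no accession, 20 spots each, and 5 of them were above background on all 6 arrays, by over 50% of their spots. On no array was more than 1 of 77 negative control spots above background. What these probes detect is not given in the sources used here.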

How the results depend on the processing

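The circRNA count of 2821 was 2613 with normexp, 2637 with quantile normalization, 2923 with median scaling, 2625 from the deposited log2 table, 2899 with an intensity trend and robust variance, 2243 without the filter and 2777 with a filter on all 6 arrays. The replicate block gave 2542, of which 2295 were among the 2821, and the numbers do not pair the rats. The count moved further with array weights (4662), an unadjusted p under 0.05 and a fold of at least 1.5 (4352), slide as a block or slide 1 alone (737), all 12 arrays (105), all 12 with slide as a block (4) and an unmoderated test (21). Added after seeing the data were the slide's row as a block (853) and 12 arrays without S rat 2 (632) or SHR rat 2 (1549). The row was inferred from the barcode in the headers, as the slide was from the scan date. Leaving out 1 rat gave 737 to 2544. The cause of these moves was not tested, apart from fewer arrays or a wider spread by construction.

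Of the 32 named circRNAs 18 were kept by the filter on all 6 arrays (the other 14 were not tested there), 3 were called unmoderated and 1 with 12 arrays and slide as a block. None of the 32 changed direction. Of the 35 mRNA probes of named genes, 3 uncalled ones did: Slc28a2 (-0.11) was 0.008 with array weights and ran from -0.49 to 0.50 with 1 rat left out, Med16 (0.10) was -0.0828 with normexp and -0.0786 on slide 1 alone and with slide as a block, and ran from -0.16 to 0.40 with 1 rat left out, and Nlrp3 (0.23) was -0.17 with normexp. Normexp, which shrinks dim signals, made 18 of the 32 smaller by over 1.5 times (median size 1.35 against 3.15) and moved the median over all circRNAs from 0.02 to -0.11. Of the 35 mRNA probes called, 22 were left with the slide's row as a block (12 of 22 by named gene), and leaving out 1 rat gave 28 to 40, or 15 to 27 by named gene. The difference in the share above background ran from 0.978 to 2.78 points when 1 rat was left out.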
